A study of Mus musculus with 12 samples.

Results

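Gene expression was compared between mouse eosinophils cultured with an antibody against Siglec-F and the same cells cultured with an isotype control antibody. Members were chosen by treatment label: the 3 libraries that received the antibody without interleukin-33 (IL-33) and the 3 isotype libraries, 6 of the 12 libraries in the series, over all genes. The 6 remaining libraries received IL-33, alone or with the antibody, and are used here only as a second setting of the antibody contrast. All cells were splenic eosinophils sorted as SSChigh4get+ from IL-5tg_4get/C57BL/6 mice. Every group therefore carried an interleukin-5 transgene, which drives eosinophilia and whose promoter the labels do not name. Every group also carried the 4get reporter, in which green fluorescent protein reports the interleukin-4 gene and not release of the protein. The antibody was clone E50-2440, a rat antibody used at 5 µg/mL, and the control was rat IgG2a. Culture lasted 4 h in all groups, and the IL-33 dose in the other libraries was 10 ng/mL. The labels do not give the ages of the mice, nor whether the 3 libraries of each group are separate mice or cultures. The p-values below therefore describe library-to-library spread, part or all of which may be technical.

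Siglec-F is a sialic acid-binding receptor of mouse eosinophils with an inhibitory tyrosine motif (ITIM) in its tail, and antibody binding to it is known for inducing eosinophil death. The called genes described below include several of the ERK pathway, in which Ras, RAF and MEK relay a receptor signal to the kinases ERK1 and ERK2. Active ERK induces its own brakes: the Spred proteins restrain Ras and RAF, the Dusp phosphatases remove phosphate from ERK itself, and transcription factors such as Etv5 and the Egr family carry the signal to other genes.

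Total counts ran from 12046727 to 14636985 in the isotype libraries and from 11686603 to 15058611 with the antibody. Between 20228 and 20916 genes had at least 1 count with isotype, and between 19138 and 20494 with the antibody. Levels are given as CPM, a gene's counts scaled to the depth of its library. Libraries of 1 group differed by a median SD of 0.155 with isotype and 0.175 with the antibody on the log2 CPM scale, over the 9241 genes whose mean reached 5 CPM. All 19 eosinophil markers had counts, and their summed level was 12730 to 18210 CPM with isotype and 13700 to 18050 CPM with the antibody (marker levels are scaled to total counts only). Summed levels overlapped between the groups for 10 of 11 marker lists. The exception was the list of monocyte and macrophage markers, at 1772 to 2074 CPM with isotype and 2340 to 2579 CPM with the antibody, and its genes are given beside the myeloid receptors.

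The antibody changed few genes by the test used. Of 13554 genes that passed edgeR's filter on low counts, 20 had an adjusted p under 0.05 by edgeR's quasi-likelihood test with Benjamini-Hochberg adjustment, and these are called here. They make up 0.148% of the genes tested. Higher levels with the antibody were called for 16 genes (0.118%) and lower levels for 4 (0.0295%). The fold change was at least 2-fold for 15 of the 20. In all 20 the 3 antibody libraries lay entirely above or entirely below the 3 isotype libraries, which was the case for 13.9% of all genes tested (7.05% above, 6.87% below). An unadjusted p under 0.05 was reached by 1059 genes (7.81%), of which 577 were higher (4.26%) and 482 lower (3.56%). The median log2 fold change of all genes was -0.01, and 48.6% of them were positive. Counts over gene lists below are to be read beside these shares. At a share of 0.148%, most lists of the sizes used here would hold no call, so a list without calls is only a description.

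**Figure D1:**
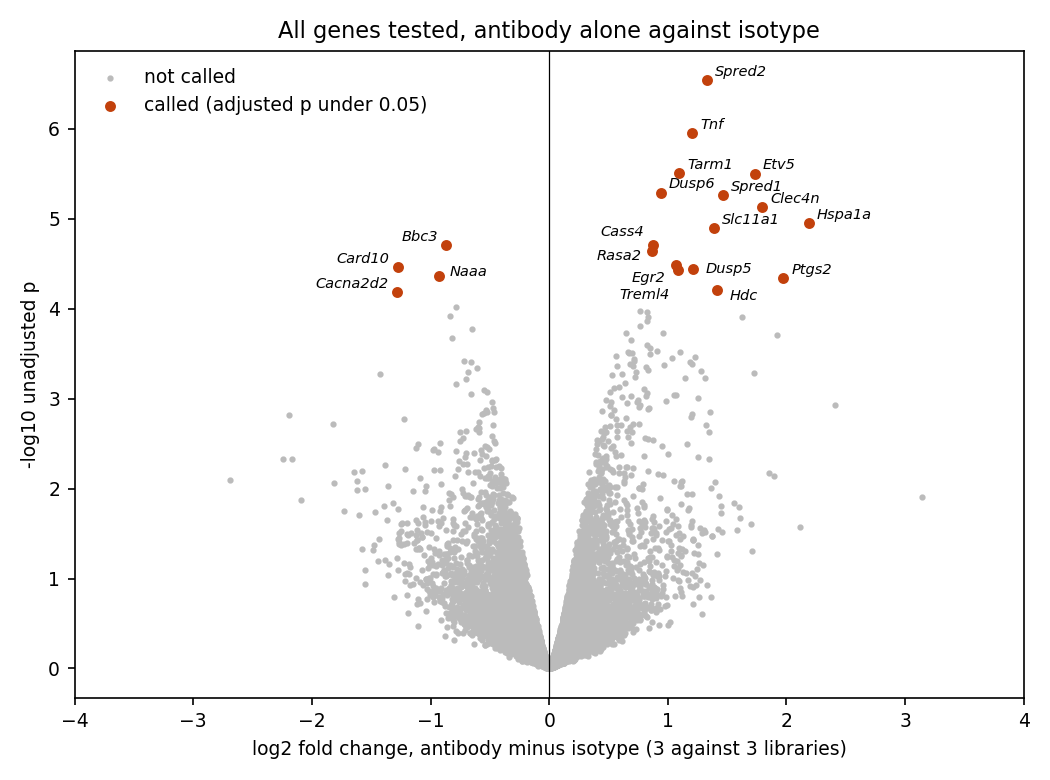
Each point is 1 of 13554 genes, with the log2 fold change of antibody minus isotype on the horizontal axis and -log10 of the unadjusted edgeR p on the vertical axis. The 20 called genes are labelled: 16 lie on the right, led by Spred2 and Tnf, and 4 on the left, led by Bbc3.

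The size of this set depends on single libraries. It held 21 genes (0.152%) without isotype library 1, 3 (0.0213%) without isotype library 2 and 0 (0%; 803 at an unadjusted p under 0.05 by edgeR) without isotype library 3. It held 3 (0.0218%) without antibody library 1, 10 (0.0716%) without antibody library 2 and 15 (0.108%) without antibody library 3. The direction of each of the 20 genes was the same in all 6 of these fits. Groups that do not overlap left little room for another outcome, so this is not a check of the calls. Spred2 and Tnf were called in 5 of the 6, Spred1 in 4, and Tarm1, Etv5, Dusp6, Clec4n, Hspa1a and Slc11a1 in 3. Dusp5 was called in 2, and Rasa2, Bbc3, Ptgs2, Hdc and Cacna2d2 in 1. Cass4, Egr2, Card10, Treml4 and Naaa were called in none. DESeq2 called 148 genes, 116 higher and 32 lower, which is 1.52% of the 9760 genes to which it gave an adjusted p. With limma voom 20 genes were called, and both sets included all 20. When other groups shared in the estimate of spread, the calls were mostly lost: edgeR called 0 genes (0%; 370 at an unadjusted p under 0.05) with all 12 libraries and 1 (0.00705%), Spred2, with the 9 libraries that leave out the combined group.

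**Figure D2:**
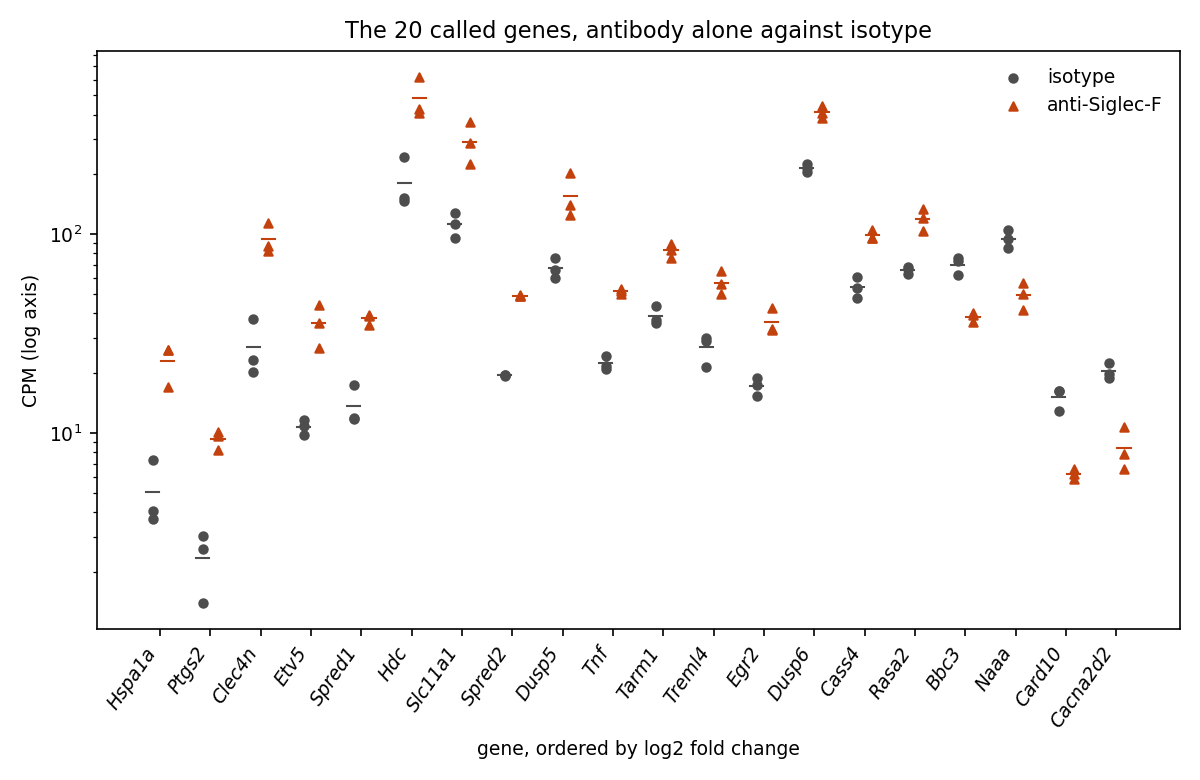
Level of each called gene in CPM on a log axis, with 1 point per library, circles for isotype and triangles for the antibody, and short lines at group means (n = 3 each). Genes run from the most positive to the most negative log2 fold change; no gene has overlapping groups, and for Spred2 the points of each group nearly coincide.

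Spred2 and Spred1, which encode membrane-bound inhibitors of Ras signalling, rose. Spred2 (gene ENSMUSG00000045671, mm10 chr11:19924375-20024026) stood at 19.7, 19.4 and 19.5 CPM in isotype libraries 1, 2 and 3 and at 49.4, 48.9 and 48.7 CPM in antibody libraries 1, 2 and 3. The 3 libraries of each group were nearly equal and the groups were far apart, a 2.51-fold difference (log2 fold change 1.33, SE 0.116, edgeR adjusted p = 0.00389). These levels rest on 238 to 292 reads per isotype library and 582 to 706 per antibody library. The SD of the isotype values, 0.146 CPM, was smaller than the 1.21 CPM that counting alone gives at that depth, so these replicates lay closer together than sequencing depth alone would leave them on average. Spred1 (chr2:117121374-117182279) measured 11.8, 17.4 and 11.9 CPM with isotype and 38.9, 39.2 and 34.96 CPM with the antibody (log2 fold change 1.46, SE 0.173, edgeR adjusted p = 0.0122). Isotype library 2 was the highest of its group and still lay well below every antibody library.

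Of the phosphatase genes on the feedback list, Dusp6 and Dusp5 rose. Dusp6, the cytoplasmic phosphatase specific for ERK (chr10:99263231-99267489), was the most abundant at 205, 224 and 216 CPM with isotype against 409, 386 and 442 CPM with the antibody (log2 fold change 0.94, SE 0.111, edgeR adjusted p = 0.0122). Dusp5, its nuclear counterpart (chr19:53529109-53542431), went from 65.9, 60.02 and 75.6 to 139.9, 125 and 203 CPM (log2 fold change 1.22, SE 0.178, edgeR adjusted p = 0.0311), with antibody library 3 the highest. The other Dusp genes of the list, for phosphatases of ERK, p38 and JNK kinases, did not pass the test: Dusp16 had a log2 fold change of 0.69 with overlapping groups (edgeR adjusted p = 0.386), and Dusp1, Dusp2, Dusp4 and Dusp10 had values of 0.02, -0.13, 0.04 and -0.20.

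Etv5, Egr2 and Rasa2, which are not on the feedback list, were called as well. They are described here because of their known ties to Ras and ERK, and were placed here after being called. The activity of ERK was not measured. Etv5, an Ets-family transcription factor that is a classical ERK target (chr16:22381309-22439719), measured 10.8, 9.72 and 11.6 CPM with isotype and 35.7, 26.7 and 44.2 CPM with the antibody (log2 fold change 1.73, SE 0.194, edgeR adjusted p = 0.0106). The antibody libraries differed among themselves by more than those of Spred2, and the lowest of them was still over the highest isotype library. Egr2, a zinc-finger factor induced early after receptor signals (chr10:67535475-67542188), went from 17.4, 18.9 and 15.4 to 32.8, 33.2 and 42.5 CPM (log2 fold change 1.07, SE 0.155, edgeR adjusted p = 0.0311). Rasa2, a GTPase-activating protein that switches Ras off (chr9:96539300-96631617), went from 68.1, 66.7 and 62.9 to 121, 134 and 104 CPM (log2 fold change 0.86, SE 0.12, edgeR adjusted p = 0.026).

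In the list of ERK and calcium feedback genes, 16 of 19 passed the filter. Of these, 4 were called higher and none lower, 6 had an unadjusted p under 0.05, all with higher levels (4.26% of all genes), and 13 were positive, with a median log2 fold change of 0.17. Rcan1 and Nfatc2, which belong to calcineurin signalling, were not called and had values of -0.25 and 0.18. Among 29 immediate early genes, transcription factors switched on within minutes to hours of a signal, only Egr2 was called, and the median was 0.18. Egr1 read 18.3, 27.6 and 23.2 CPM with isotype and 33.9, 47.7 and 40.9 CPM with the antibody (log2 fold change 0.83, SE 0.18, edgeR adjusted p = 0.151), without overlap and without a call. Klf2, a factor of quiescent lymphoid and endothelial cells, had lower values with the antibody and no call, at 362, 522 and 404 against 259.9, 248 and 221 CPM (log2 fold change -0.82, SE 0.149, edgeR adjusted p = 0.0862), and Fos had a value of 0.04 and Junb of -0.02.

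Of the motifs searched, sequences are shown only for matches to the CArG box and the heat shock element, so the windows shown were chosen for holding them. Windows covered the 250 bases before each start in the RefSeq promoter table (build GRCm38.p6), and 19 of the 20 called genes had one. Of these, 2 held a CArG box, the element bound by serum response factor, on either strand: Egr2 and Dusp5. The element was found in 1.47% of all 32851 windows and in 1.35% of 9380 tested genes with a window. Of the 19, 1 gene, Hspa1a, held the heat shock element GAANNTTC, found in 6.69% of windows and in 6.055% of tested genes. Capitals mark the element in each sequence, which runs 5′ to 3′ on the gene's strand and, for Egr2 and Hspa1a, ends at the base before the annotated start.
Egr2, chr10:67537719-67537868, plus strand: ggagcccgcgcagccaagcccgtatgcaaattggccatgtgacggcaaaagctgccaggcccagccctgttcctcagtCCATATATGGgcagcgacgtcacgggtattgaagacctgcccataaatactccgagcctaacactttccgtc
Egr2, earlier start, chr10:67537416-67537565, plus strand: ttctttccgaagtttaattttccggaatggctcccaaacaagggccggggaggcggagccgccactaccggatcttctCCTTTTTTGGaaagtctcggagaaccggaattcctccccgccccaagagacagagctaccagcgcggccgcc
Dusp5, chr19:53529058-53529087, plus strand: aatacCCATATTTGGCCTTATATGGgcact
Hspa1a, chr17:34972157-34972306, minus strand: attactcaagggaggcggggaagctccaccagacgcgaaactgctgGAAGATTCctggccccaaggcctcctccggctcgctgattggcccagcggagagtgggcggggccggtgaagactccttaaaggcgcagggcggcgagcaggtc
The Dusp5 stretch spans positions -87 to -58 from its RefSeq start, ends before the gene start of the authors' table too, and holds 2 CArG boxes side by side, at -82 and -72. The whole Dusp5 window lies inside an exon of an antisense RNA gene on the other strand in the GENCODE annotation, and the strand setting of the counting is not given in the sources used here, so reads of the 2 genes may be mixed where they overlap. Egr2 had 5 windows for its annotated starts. The box begins at -72 in the 2 shown, the same sequence is met at -73 and -133 in 2 that overlap the first, and the window nearest the start of the gene's coordinates given above held none. In Hspa1a the heat shock element begins at -104. None of the 19 genes held the AP-1 site TGANTCA, the cyclic AMP element TGACGTCA or the EGR site GCGTGGGCG in these windows. These were found in 6.75%, 1.55% and 0.536% of windows and in 5.32%, 3.03% and 1.30% of tested genes. The antioxidant element TGACNNNGC was present for 4 of the 19 (14.2% of tested genes), the hypoxia element ACGTG for 6 (25.4%) and an NF-kB site for 1, Bbc3 (5.37%). All were searched on both strands, and a match describes these letters only.

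Mediators of inflammation formed the next group. Tnf, the gene of tumour necrosis factor (chr17:35199381-35202007), measured 24.4, 21.7 and 21.1 CPM with isotype and 50, 52.7 and 51.8 CPM with the antibody (log2 fold change 1.20, SE 0.12, edgeR adjusted p = 0.00752). The values within each group lay within a few CPM of each other, on 257 to 362 and 627 to 752 reads. Ptgs2, the inducible cyclooxygenase of prostaglandin synthesis (chr1:150100031-150108227), rose from a low level, 3.03, 2.603 and 1.39 CPM, to 9.62, 8.15 and 10.1 CPM (log2 fold change 1.97, SE 0.297, edgeR adjusted p = 0.0343). Its isotype counts were 17 to 45 reads, so its fold change is less precise than that of Tnf. Hdc, the enzyme that makes histamine (chr2:126593667-126619299), was among the most abundant called genes at 244, 152 and 147 CPM against 618, 406 and 426 CPM (log2 fold change 1.42, SE 0.221, edgeR adjusted p = 0.0439). Library 1 was the highest in both groups. Summed basophil and mast cell markers, from cells that also express Hdc, were 159.1 to 201 CPM with isotype and 191.5 to 231 CPM with the antibody. Most of that sum was Gata2 (122.9 to 158 against 165.5 to 199.8 CPM), which is on the eosinophil list too. Of the 12 markers 8 were tested, none was called, 3 had positive values (48.6% of all genes) and the median log2 fold change was -0.38. Mcpt8 and Cpa3, which mark basophils and mast cells, stayed at or under 3.32 and 2.6 CPM in all 6 libraries, and Tpsb2 had no counts. Kit was at 10.7 to 29.3 CPM with isotype and 10.5 to 17.5 CPM with the antibody. The part of such cells in the Hdc difference was not tested.

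Other cytokine and chemokine genes mostly had positive values without passing the test. Of 16 cytokine and growth factor genes tested, 1 was called (Tnf) and 14 were positive (48.6% of all genes). An unadjusted p under 0.05 was reached by 9, all higher (4.26% of all genes). The median log2 fold change was 0.47 against -0.01 for all genes, and it ran from 0.28 to 0.55 over 15 alternative fits. Il5, the eosinophil growth and survival factor, read 288, 287 and 287 CPM with isotype and 572, 407 and 559 CPM with the antibody (log2 fold change 0.84, SE 0.141, edgeR adjusted p = 0.065). The isotype libraries were almost equal and antibody library 2 was the lowest of its group. Reads of the IL-5 transgene cannot be told apart from those of the native gene in these counts. Il1a gave 1.73 (adjusted p = 0.113), Il1b 1.05 (adjusted p = 0.153), and Il13 and Il4, the type 2 cytokines, 0.74 and 0.47 (edgeR adjusted p = 0.163 and 0.339). Il6 read 3.03, 2.14 and 1.97 CPM with isotype and 3.402, 1.93 and 3.31 CPM with the antibody, on 23 to 48 reads, and the groups overlapped.

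No chemokine was called among 12 tested, and 5 had an unadjusted p under 0.05, all higher (4.26% of all genes). The median over the 12 was 0.69, with a range of 0.56 to 0.91 over those fits. Ccl3, a chemoattractant for myeloid cells, measured 21.3, 22.7 and 14.9 CPM with isotype and 46.2, 30.8 and 49.2 CPM with the antibody (log2 fold change 1.10, SE 0.208, edgeR adjusted p = 0.102). Ccl4 gave 1.25 and Ccl24, an eosinophil chemoattractant listed at no more than 1.21 CPM in isotype libraries, 2.41 (edgeR adjusted p = 0.319 and 0.169). Of 23 NF-kB feedback and subunit genes none was called, and the median was 0.19. An unadjusted p under 0.05 was reached by 6, all higher (4.26% of all genes). The steepest, Nfkbiz, gave 0.48 (edgeR adjusted p = 0.232).

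Genes for myeloid receptors, a phagosome transporter and an adhesion scaffold made up a further group of called genes, all higher. Tarm1, an activating immunoglobulin-family receptor (chr7:3486500-3502624), measured 43.4, 36.9 and 35.9 CPM with isotype and 82.9, 76.1 and 89.7 CPM with the antibody (log2 fold change 1.10, SE 0.123, edgeR adjusted p = 0.0106). Clec4n, the gene of Dectin-2, a C-type lectin for fungal sugars (chr6:123229843-123247021), went from 37.6, 20.3 and 23.4 to 86.8, 82.4 and 114 CPM (log2 fold change 1.80, SE 0.221, edgeR adjusted p = 0.0144). Isotype library 1 was the highest of its group for both genes, and no antibody library fell below it. Treml4, a TREM-family receptor (chr17:48264295-48275360), read 21.5, 30.2 and 29.01 CPM against 49.9, 56.1 and 65.2 CPM (log2 fold change 1.09, SE 0.159, edgeR adjusted p = 0.0311). Slc11a1, a metal ion transporter of phagosomes (chr1:74375195-74386062), went from 95.2, 128 and 113 to 224, 288 and 366 CPM (log2 fold change 1.39, SE 0.18, edgeR adjusted p = 0.0192). Cass4, a scaffold of adhesion signalling (chr2:172393794-172433757), went from 53.7, 48 and 60.7 to 96.2, 95.9 and 105 CPM (log2 fold change 0.87, SE 0.119, edgeR adjusted p = 0.0241).

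The summed monocyte and macrophage markers moved with the same groups, as given above. Adgre1 (1075 to 1286 CPM with isotype, 1463 to 1561 with the antibody), Csf1r (424 to 494 against 553 to 728) and Slc40a1 (57.4 to 91.2 against 93.6 to 142) made up most of that difference. Adgre1 encodes F4/80, which mouse eosinophils also carry. C1qa, C1qb, C1qc, Mertk, Cd5l, Spic, Cx3cr1 and Ms4a7 stayed at or under 3.32 CPM in all 6 libraries. Vcam1 was at 11.5 to 40.9 CPM with isotype and 9.1 to 41.2 CPM with the antibody, Cd68 at 11.5 to 13.1 and 9.84 to 16.8, Lyz2 at 39.3 to 63.6 and 32.9 to 46.3, and Ly6c2 at 63.6 to 142 and 55.3 to 138. Of the 16 listed markers 14 were tested and none was called. An unadjusted p under 0.05 was reached by 3 with higher levels (4.26% of all genes) and 1 with lower levels (3.56%). The part of other cells in the receptor differences was not tested. In these bulk libraries more cells of a type and more RNA per cell cannot be told apart.

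Of 20 paired inhibitory and activating receptors tested none was called, and 18 were positive (median 0.20), against 48.6% of all genes. Clec4a2, an ITIM-bearing lectin, came closest to the threshold at 80.05, 85.8 and 63.3 CPM against 139, 120.2 and 146 CPM (log2 fold change 0.82, SE 0.137, edgeR adjusted p = 0.0648), and its reads may be shared with related Clec4a copies. The eosinophil activation surface list had 25 members tested and none called (median 0.26). An unadjusted p under 0.05 was reached by 10 with higher levels (4.26% of all genes) and 1 with a lower level (3.56%). Olr1, a scavenger receptor, gave 0.82 (adjusted p = 0.0683), Cd9, a tetraspanin, 0.82 (adjusted p = 0.108), and Itgb7, a homing integrin subunit, -0.66 (edgeR adjusted p = 0.105).

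Stress genes were represented by 1 call. Hspa1a, an inducible chaperone of the HSP70 family (chr17:34969190-34972156), had the largest fold change of the 20: 7.34, 4.06 and 3.69 CPM with isotype and 26.2, 16.98 and 26.1 CPM with the antibody (log2 fold change 2.19, SE 0.281, edgeR adjusted p = 0.0189). Library 1 of the isotype group was the highest there and antibody library 2 the lowest, without overlap. Its near-identical neighbour Hspa1b, with which reads may be split, read 14.6, 7.04 and 4.51 CPM against 38.5, 25.8 and 35.9 CPM (log2 fold change 1.92, SE 0.344, edgeR adjusted p = 0.0823). Other chaperones were not called: Hsp90aa1 gave 0.38 and Hspa8 0.36, and Dnajb1 and Bag3, also targets of heat shock factor, -0.06 and -0.02. The median over 18 heat shock chaperones was 0.19.

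NRF2 antioxidant genes, which encode enzymes that buffer oxidative stress, had no call among 18 tested. All 18 were positive (48.6% of all genes) and 10 had an unadjusted p under 0.05, all higher (4.26% of all genes). The median log2 fold change was 0.39 and ran from 0.30 to 0.52 over 15 alternative fits. Slc7a11, the cystine importer that feeds glutathione synthesis, measured 505, 366 and 298 CPM with isotype and 1034, 1023 and 609 CPM with the antibody (log2 fold change 1.19, SE 0.232, edgeR adjusted p = 0.105). Antibody library 3 lay nearest to the isotype libraries, and the groups did not overlap. Txnrd1, thioredoxin reductase, gave 0.82 and Srxn1, sulfiredoxin, 0.76 (edgeR adjusted p = 0.0982 and 0.0749). DESeq2 called these 3 genes (adjusted p = 4.19e-06, 4.12e-05 and 8.94e-05). The NADPH oxidase subunits, which make superoxide, had 9 tested, none called, none at an unadjusted p under 0.05 and a median of 0.03; Cybb, the catalytic subunit, read 153, 119 and 182 CPM against 165, 153 and 172 CPM.

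The 4 genes that fell were of different kinds. Bbc3, which encodes PUMA, a death-promoting BH3-only protein (chr7:16308393-16318205), went from 62.2, 75.5 and 73.2 CPM with isotype to 40.02, 36.2 and 39.1 CPM with the antibody (log2 fold change -0.87, SE 0.119, edgeR adjusted p = 0.0241). Naaa, a lysosomal hydrolase of fatty acid amides (chr5:92257659-92278170), went from 94.2, 104 and 84.9 to 57.03, 50.3 and 41.6 CPM (log2 fold change -0.93, SE 0.139, edgeR adjusted p = 0.0343). Card10, a scaffold protein that links receptors to NF-kB (chr15:78775138-78803042), went from 16.2, 12.9 and 16.2 to 6.58, 5.88 and 6.21 CPM (log2 fold change -1.28, SE 0.186, edgeR adjusted p = 0.0311). Cacna2d2, an auxiliary calcium channel subunit (chr9:107399612-107529343), went from 19.8, 18.98 and 22.5 to 6.58, 7.82 and 10.7 CPM (log2 fold change -1.28, SE 0.201, edgeR adjusted p = 0.0439). In each of the 4 the lowest isotype library lay above the highest antibody library.

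Genes of cell death and survival were otherwise without calls. Among 18 BH3-only and effector death genes Bbc3 was the only call; 5 had an unadjusted p under 0.05 with lower levels (3.56% of all genes) and 1 with a higher level, 9 were positive and the median was 0.01, with either sign among the alternative fits. Bcl2l11, Pmaip1, Bax and Bak1, which drive mitochondrial death, had log2 fold changes of 0.13, 0.19, -0.02 and 0.19. Of 13 anti-apoptotic genes none was called (median 0.12), and 5 had an unadjusted p under 0.05, all higher (4.26% of all genes). Bcl2 measured 17.8, 15.3 and 19.9 CPM with isotype and 32.5, 44.3 and 27.3 CPM with the antibody (log2 fold change 0.97, SE 0.191, edgeR adjusted p = 0.107). Bcl2l1, which encodes BCL-XL, gave 0.46 and Mcl1, the most abundant of them, -0.06 (edgeR adjusted p = 0.279 and 0.951). Bcl2a1d gave 0.69, with reads that near-identical Bcl2a1 copies may share.

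**Figure D3:**
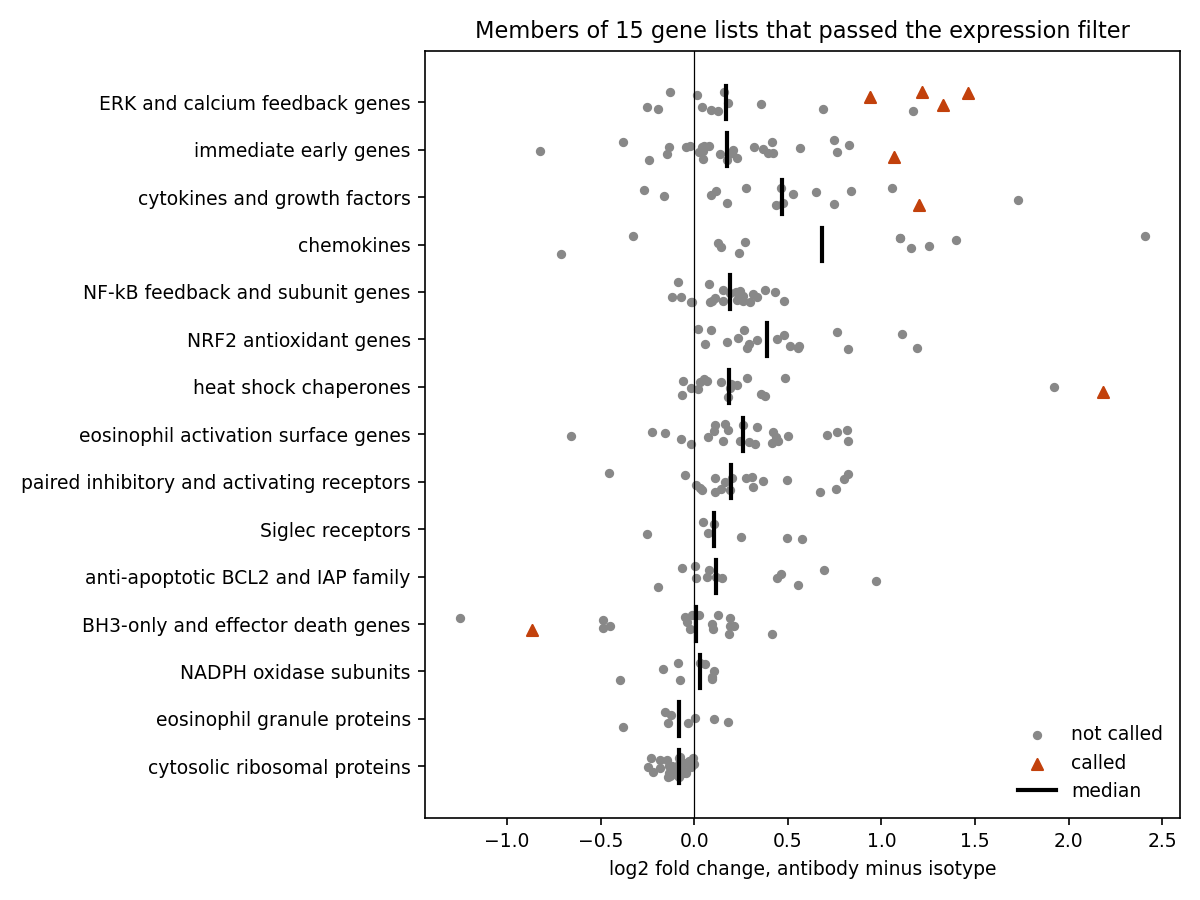
Log2 fold change of antibody minus isotype for each tested member of 15 gene lists; circles are genes without a call, triangles called genes and black bars list medians. NRF2 antioxidant genes lie right of 0 in 18 of 18 cases, cytosolic ribosomal proteins left of 0 in 37 of 37, and NADPH oxidase subunits lie around 0. Of all genes tested, 48.6% were positive.

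The receptor itself and the genes of eosinophil identity did not pass the test. Siglecf (chr7:43351341-43359531) read 942, 818 and 974 CPM with isotype and 858, 867 and 1103 CPM with the antibody, overlapping groups with a log2 fold change of 0.05 (SE 0.138, edgeR adjusted p = 0.968). None of 7 Siglec genes tested was called; Cd33 gave 0.57 and Siglece 0.50 (edgeR adjusted p = 0.232 and 0.418). The phosphatases that ITIM receptors recruit were not called: Ptpn6 (SHP-1) gave 0.19, Ptpn11 (SHP-2) 0.36 and Inpp5d (SHIP-1) 0.21 (edgeR adjusted p = 0.765, 0.399 and 0.738). Ccr3, the eotaxin receptor, gave -0.01, Il5ra 0.10, its partner chain Csf2rb 0.24, and the IL-33 receptor Il1rl1 0.27 (edgeR adjusted p = 0.994, 0.929, 0.701 and 0.665).

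Granule protein genes varied between libraries far more than between groups. Epx, eosinophil peroxidase, read 657, 287 and 128 CPM with isotype and 687, 266 and 122 CPM with the antibody, and Prg2, major basic protein, 2915, 1610.3 and 688 and 3014, 977 and 740.0 CPM. Library 1 was the highest in both groups for both genes. Levels of both genes also fell with library number in both groups. The main fit did not pair the libraries, so this shared order is part of its SEs. These were 0.607 and 0.544 on the log2 scale, so only large changes could have been detected by that fit. With a term for library number (a replicate block), the log2 fold change was -0.037 for Epx and -0.19 for Prg2. Neither was called in that fit (edgeR adjusted p = 0.969 and 0.864). Whether equal numbers mark matched cultures is not in the labels. Library 1 of each group also had the highest summed neutrophil markers, 2481 CPM for isotype and 2497 CPM for antibody, against 1262 to 1878 CPM in the other 4 libraries. Most of the sum in isotype library 1 was Ngp (988 CPM) and Retnlg (893 CPM), and in antibody library 1 Ngp (994 CPM) and Retnlg (763 CPM). Ngp and S100a9 were highest in library 1 of both groups. Retnlg was highest in isotype library 2, and Camp and Lcn2 in isotype library 3. The part of neutrophils was not tested.

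Among the larger sets of genes for protein synthesis and metabolism none was called. Cytosolic ribosomal protein genes had negative log2 fold changes in all 37 cases, none called and none at an unadjusted p under 0.05, with a median of -0.08. That median kept its sign in 13 of 15 alternative fits and lay between -0.19 and 0.08. The share of all counts taken by ribosomal protein genes was 1.96% to 2.71% with isotype and 1.81% to 2.24% with the antibody. Ribosome biogenesis and MYC target genes had 27 of 31 positive values (48.6% of all genes), none called and a median of 0.17. Of the 31, 7 had an unadjusted p under 0.05, all higher (4.26% of all genes). Glycolysis and hypoxia genes had 22 of 28 positive, none called, and a median of 0.15. Of 19 genes of interleukin-5 receptor signalling, Spred2 was the only call; Cish, a STAT5 target, gave 0.27 (edgeR adjusted p = 0.547).

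The antibody contrast could be read again in the other 6 libraries, where both groups had IL-33. That contrast was antibody with IL-33 against IL-33 alone. Of 13489 genes tested there, edgeR called none (0%), with 1258 (9.33%) at an unadjusted p under 0.05; DESeq2 and limma voom called none either. Libraries of both groups stood apart. In combined libraries 2 and 3, 15555 and 29990 genes had a count. Ribosomal protein genes took 3.45% and 3.99% of counts there, against 1.69% to 2.71% in the other 10 libraries. In IL-33 library 2, a control here, 24485 genes had a count, against 19742 and 19950 in IL-33 libraries 1 and 3. Its mitochondrial share was 2.86%, against 1.16% and 1.42%. Its summed T cell and ILC2 markers were 181.5 CPM, against 64.3 and 48.9 CPM.

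All 20 genes called without IL-33 had the same direction with IL-33, against 48.6% of the 13015 genes tested in both. The same held for all 20 when combined library 1 was the only library of its group. An unadjusted p under 0.05 was reached with IL-33 by 7 of the 20: Tarm1 (log2 fold change 1.13), Etv5 (1.31), Naaa (-0.94), Dusp6 (0.59), Tnf (0.85), Spred1 (0.71) and Hdc (1.13). A same-direction value with p under 0.05 was found for 4.83% of all genes tested in both. A closer comparison is the 1031 of these genes with an unadjusted edgeR p under 0.05 without IL-33, which include the 20. Of the 1031, 62.7% had the same direction with IL-33, and 10.7% had the same direction with p under 0.05. Among the 16 called higher, the median log2 fold change was 1.27 without IL-33 and 0.77 with it, and among the 4 called lower -1.10 and -0.67. The values were smaller with IL-33 for 18 of the 20, but the genes had been selected on the first contrast, which by itself favours larger values there.

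**Figure D4:**
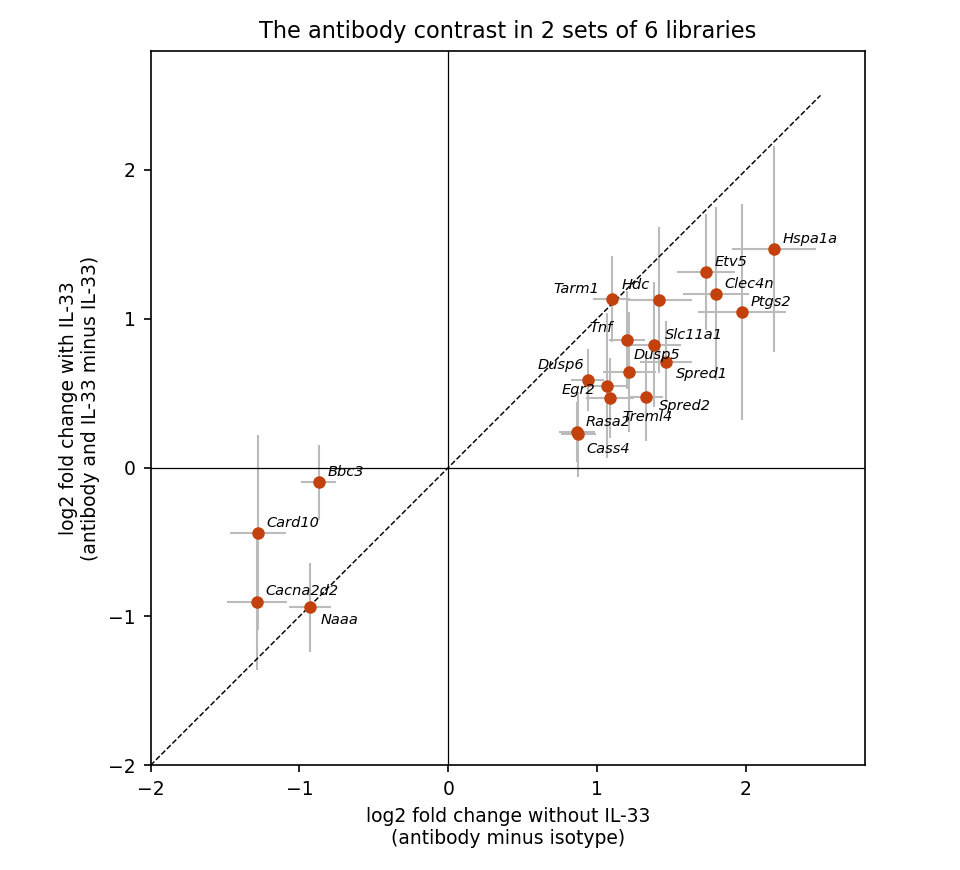
Log2 fold change of the antibody without IL-33 (horizontal) and with IL-33 (vertical) for the 20 called genes, each from its own 6 libraries; lines are 1 SE and the dashed line marks equal values. All 20 points lie in the upper right or lower left quadrant, and 18 lie nearer to 0 on the vertical than on the horizontal axis.

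The difference between the 2 settings was tested as an interaction over all 12 libraries. edgeR called none of 14547 genes (0%), with 1150 (7.91%) at an unadjusted p under 0.05; DESeq2 called 1 and limma voom none. Among the 20, the interaction had an unadjusted p under 0.05 for 4 genes, each with a smaller change when IL-33 was present. Spred2 had a log2 fold change of 0.47 with IL-33 and 1.33 without, an interaction of -0.86 (SE 0.328). The interaction was -0.76 (SE 0.338) for Spred1, -0.63 (SE 0.223) for Rasa2 and 0.76 (SE 0.28) for Bbc3. The lowest edgeR adjusted p of the interaction among the 20 was 0.583, so a difference between the settings was not shown for any of them.

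Set beside IL-33 alone, the called genes differed widely in size. The IL-33 contrast uses the same isotype libraries, so the values are given side by side only. Etv5 gave 1.73 for the antibody and 0.23 for IL-33, each against isotype. Dusp6 gave 0.94 and 0.54, Spred2 1.33 and 0.53, and Hdc 1.42 and 0.83. Other genes had larger values for IL-33: Ptgs2 gave 1.97 and 6.62, Clec4n 1.80 and 3.27, Tnf 1.20 and 2.70, and Il6, which was not called for the antibody, 0.27 and 6.52. These log2 fold changes each come from 6 libraries.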

How the data were processed

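Libraries were made from total RNA with the NEBNext Ultra kit, per the labels' protocols. The authors deposited a table of raw counts of 54532 genes in 12 libraries. The submitters' processing notes name the mm10 build, STAR 2.6.1d and featureCounts 1.5.0-p3, with fastp, FastQC 0.11.8 and DESeq2. The annotation release and strand setting were not given in the sources used here. Overlapping and antisense genes therefore cannot be told apart. The authors' DESeq2-normalized table was not used.

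The deposited counts of the 6 libraries were fitted alone with edgeR 4.0.16 in R 4.3.3 (quasi-likelihood F test, TMM scaling, filterByExpr by group with a minimum count of 10, no replicate block). Benjamini-Hochberg adjustment ran over all genes tested, and an adjusted p under 0.05 was called. CPM use the TMM factors of these 6 libraries unless said otherwise, and SE is the size of the log2 fold change over the square root of F. The same model was fitted to the 6 libraries with IL-33 and, for the interaction, to all 12. Scripts were tested on simulated data. Alternatives were DESeq2 1.42.0, its size factors, limma 3.58.1 (voom, with and without quality weights), other filters, a replicate block, more libraries and leaving out each library.

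The text names all called genes, up to 3 uncalled members of each list with the smallest unadjusted p and a fixed set of receptor and effector genes; other list members are given by log2 fold change only, chosen after their values were seen. There were 33 pathway lists and 11 marker lists, with 776 of 780 symbols in the table. Comparison, members and lists were chosen with earlier results of these data known. No 2 libraries of the same group agreed within sampling noise, and libraries of different groups were not compared in this way. Coordinates are those of the authors' table.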

Additional observations from a re-analysis of the deposited data

How the results depend on the processing

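The direction of all 20 called genes was kept in all 15 alternatives. These reuse the same 6 libraries, whose groups do not overlap for these genes, which left little room for another outcome. The count of 20 called genes depended on the processing. It was 20 with DESeq2's size factors, 20 with limma voom, 19 with a mean of at least 5 CPM required, 148 with DESeq2, 215 without an expression filter and 69 with voom quality weights. When the other libraries shared in the estimate of spread, it was 0 with all 12 libraries (370 at an unadjusted p under 0.05) and 1, Spred2, with the 9 libraries that leave out the combined group. Leaving out each of the 6 libraries in turn gave 0 to 21 calls. A replicate block gave 50 calls (42 higher, 8 lower), including all 20. Deviations of same-numbered libraries correlated at 0.43, -0.14 and 0.11 over 9241 genes. The main fit did not pair the libraries, because the labels state no block. Antibody libraries 2 and 3 did not correlate best with their own numbers. Epx and Prg2 nonetheless fell from library 1 to library 3 in both groups. Whether equal numbers mark a shared sort or culture is not in the labels and was not tested. With IL-33 the count was 0 in every alternative but the fit without an expression filter, which called 204. For the interaction the exceptions were DESeq2 (1), no filter (86) and leaving out combined library 1, with a range of 0 to 4 over the leave-outs. The cause of these differences was not tested. The fits also differ in the number of libraries and genes they hold. Of 495 list medians under an alternative, 26 moved by more than the spread between libraries. Over the 15 alternatives the fold change of Ptgs2 ran from 1.72 to 2.32 on the log2 scale, and genes of a few CPM are limited in the same way by depth.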
